A study of Mus musculus with 32 samples.

Results

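The comparison described here sets WSP-1 against WSP-2, the 2 replicate populations of mice selected for severe seizures during alcohol withdrawal, in animals that breathed air. It rests on 8 of the 32 arrays of the series, 4 of each population, chosen by their titles. Within each population 2 arrays came from females and 2 from males, and each array carried pooled prefrontal cortex RNA of 2 mice, with 2.5 µg from each mouse. The mice were drug-naive adults of selected generation 26. WSP-1 and WSP-2 air mice spent the 72 h of the experiment in air chambers and were sampled 8 h after it ended, and all of them received pyrazole, an inhibitor of alcohol dehydrogenase, at 68.1 mg/kg. Air mice are therefore pyrazole-treated animals and not untreated ones. Set beside them are the 8 EtOH arrays of WSP-1 and WSP-2, from mice kept in ethanol vapour for the same 72 h with the same pyrazole, and the 8 air arrays of WSR-1 and WSR-2, the replicate populations selected for mild withdrawal seizures. The EtOH mice had a starting injection of ethanol at 1.5 g/kg in WSP-1 and at a somewhat higher dose in WSP-2, so the EtOH arrays differ between the populations in dose as well. A pool of 2 mice averages over animals, and each population was represented by 8 mice in air.

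Selection experiments of this kind are run in replicate because a closed breeding population changes in 2 ways at once. Selection shifts alleles that bear on the trait, and drift shifts alleles that do not, at random and separately in each replicate. A difference in expression that is shared by both replicates is usually read as related to the trait, whereas a difference between replicates selected for the same trait is not. In these data drift, the mice sampled and the arrays cannot be told apart in such a difference. The series' own design text states that the replicates were collapsed into 1 group for the study's comparisons, and the comparison below is the one that this collapsing sets aside.

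Expression was read as the brightness of 33P-labelled cDNA on spotted clones, 1 spot per clone. The array held 5355 spots, of which 4696 were cDNA clones, 192 were genomic DNA control spots and 467 had no identity. All values below are log2 intensities after background correction with an offset of 50 and quantile normalisation, so a difference of 1 is 2-fold. The offset puts a floor at 5.64, and 84.5% of the clones had a mean within 1 log2 unit of it, where differences are compressed. Over the 8 arrays, 53.2% to 75.3% of clones were above the array's background, 1553 clones were above background on all 8 and 144 on none. Background averaged 25 ± 9.41 in WSP-1 and 22.6 ± 9.19 in WSP-2 (SD, n = 4 arrays each; exact permutation test, 2-sided, p = 0.629). The percentage of clones above background averaged 65.6 ± 8.05 in WSP-1 and 62.1 ± 7.68 in WSP-2 (SD, n = 4 each; exact permutation test, p = 0.571). After adjustment over these 2 measures both p-values were 0.629, and the smallest p that 4 against 4 arrays allow is 0.0286. With arrays exchanged only within each sex, the permutation test gave p = 0.611 for background and 0.278 for the percentage above background. The smallest p possible in that version is 0.0556.

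No clone passed the test of WSP-1 against WSP-2 in air. In limma's test with sex as a block, 0 of 4696 clones (0%) had a Benjamini-Hochberg adjusted p under 0.05, and the smallest adjusted p was 0.861. Without adjustment, 183 clones (3.9%) had p under 0.05, of which 78 (1.66%) had the higher mean in WSP-1 and the others (2.24%) the lower mean. Overall 50.1% of clones had the higher mean in WSP-1, and the median absolute difference was 0.08. Single clones ranged from -0.86 to 0.88, and 0 clones reached a 2-fold difference of means on this scale. The 4 values of WSP-1 lay wholly above the 4 values of WSP-2 for 35 clones (0.745%) and wholly below them for 74 clones (1.58%).

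The range of differences that the values of a single clone allow can be read from its 95% confidence interval. The median half-width of the interval was 0.26 over all clones and 0.31 over the 1553 clones above background on every array. For 1505 of those 1553 clones (96.9%) the whole interval lay within 2-fold in either direction, and for 1053 (67.8%) it lay within 1.41-fold. These widths belong to the compressed scale. Without background correction the median half-width over the same 1553 clones was 0.54, and the interval of 1283 of them (82.6%) stayed within 2-fold. The raw signal still holds the background, so that scale compresses differences of dim clones as well. On these scales a 2-fold difference of intensity lay outside the interval for most of the 1553 clones. Differences under about 1.4-fold lay within the interval for many of them. The intervals are those of single clones and are not adjusted for the number of clones tested. A clone needed a larger difference to pass the adjusted threshold, and that size was not computed. A limit on the fold difference of the transcripts themselves cannot be read from these intervals for dim clones. Each pool was read on 1 array, so the p-values measure the spread between pools and between arrays together. The pools of a group came from 1 breeding population, and 4 pools say nothing about other populations.

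**Figure D1:**
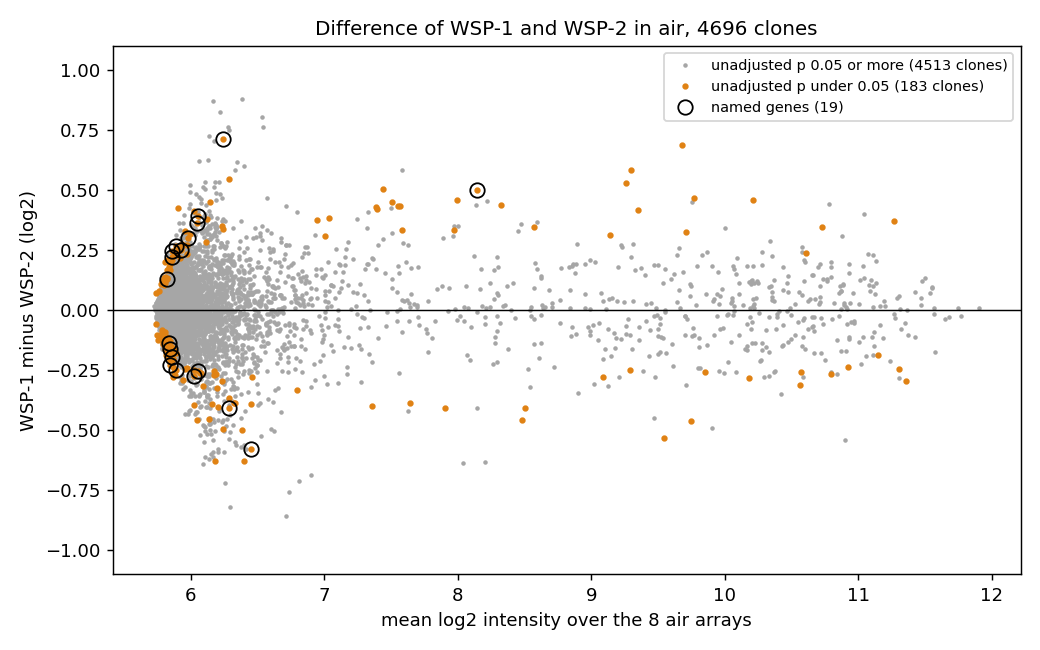
Difference between WSP-1 and WSP-2 in air (vertical axis, log2) against the mean log2 intensity over the 8 air arrays (horizontal axis) for the 4696 clones. Points with an unadjusted p under 0.05 (183 clones) lie on both sides of 0 at all intensities, most clones crowd near the floor of 5.64, and 19 of the 20 named genes are ringed.

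The genes with the smallest p-values, 10 in each direction, are given as values, since their adjusted p was 0.861 in every case. Where 4 values of a population are listed they are female pool 1, female pool 2, male pool 1 and male pool 2. A fold given as at least a value compares observed means, with the undetected population raised to the lowest signal above background. It holds for the means on this compressed scale, carries no sampling error and is not a confidence limit. Among the signalling genes, growth factor receptor bound protein 2, the adaptor that links receptor tyrosine kinases to Ras, read 6.36, 6.39, 6.04 and 6.12 in WSP-1, against 5.81, 6.14, 5.71 and 5.79 in WSP-2. Its 2 lowest WSP-1 pools were male and fell below the highest WSP-2 pool, so the populations overlapped, with a difference of 0.36 (SE 0.11, unadjusted p = 0.00946). Serum/glucocorticoid regulated kinase-like, a kinase of the family activated downstream of phosphoinositide 3-kinase, was above background on all 8 arrays, with 8.43, 8.26, 8.65 and 8.23 in WSP-1, against 7.57, 7.47, 8.10 and 8.43 in WSP-2. The female pools were apart and the male pools were not, and the difference was 0.50 (SE 0.18). It became 0.23 when arrays were scaled by their medians in place of quantiles. Cardiotrophin 1, a cytokine of the interleukin 6 family, read 6.19, 5.88, 5.85 and 5.95 in WSP-1, against 5.83, 5.71, 5.80 and 5.65 in WSP-2. It was above background on no WSP-2 array, which puts its mean at least 1.06-fold higher in WSP-1. Nemo like kinase, which acts in Wnt signalling, read between 5.75 and 5.80 in WSP-1, against 5.84 to 5.95 in WSP-2. It was above background on no WSP-1 array, and its mean was at least 1.03-fold lower in WSP-1.

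Several of the genes belong to the machinery of translation and respiration. Ribosomal protein L30 (Rpl30), of the large ribosomal subunit, read 5.83, 6.01, 6.05 and 6.18 in WSP-1, against 5.77, 5.82, 5.70 and 5.73 in WSP-2. All WSP-1 pools lay above all WSP-2 pools, the difference was 0.27 (SE 0.08), and since no WSP-2 array had the spot above background the bound is at least 1.1-fold higher in WSP-1. The eIF3 p66 clone, a subunit of the initiation factor that brings the small ribosomal subunit to mRNA, read 5.90, 6.09, 6.22 and 6.31 in WSP-1, against 5.89, 5.86, 5.74 and 5.83 in WSP-2, a difference of 0.30 (SE 0.11). The populations did not overlap by a narrow margin, because female pool 1 of each read nearly the same. NADH dehydrogenase 1 alpha subcomplex 2 (Ndufa2), a subunit of respiratory complex I, read 5.75, 5.89, 6.16 and 6.13 in WSP-1, against 5.75, 5.80, 5.68 and 5.71 in WSP-2, at least 1.07-fold higher in WSP-1. The separation of Ndufa2 was in the males, whose difference was 0.45, against 0.05 in the females.

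Phenylalanine hydroxylase, the liver enzyme that makes tyrosine from phenylalanine, had the smallest p-value of the named genes. It read 6.15, 6.45, 6.14 and 6.24 in WSP-1, against 5.82, 6.01, 5.69 and 5.90 in WSP-2. The populations did not overlap, and the difference was 0.39 (SE 0.12, 95% interval 0.13 to 0.65, unadjusted p = 0.00833). The clone was above background on all 4 WSP-1 arrays and on 2 WSP-2 arrays. Fibromodulin, a small proteoglycan that binds collagen, differed by 0.25 (SE 0.09) with overlapping populations. Pale ear, a gene of pigment granule and lysosome biogenesis, had means of 5.88 ± 0.07 in WSP-1 and 5.75 ± 0.05 in WSP-2 (SD, n = 4 each), and it was above background on 2 WSP-1 arrays and on no WSP-2 array, so its WSP-2 level is only a bound.

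The transcription genes were led by the regulatory factor X-associated ankyrin-containing protein, a subunit of the complex that drives major histocompatibility class II genes, which had the largest difference of the 20. It read 5.94, 5.89, 7.24 and 7.31 in WSP-1, against 5.84, 5.83, 6.01 and 5.85 in WSP-2. Both male WSP-1 pools stood more than 1 log2 unit above the other 6 arrays, whereas the female WSP-1 pools stood with WSP-2. The difference was 0.71 (SE 0.23) over both sexes, 1.34 in males and 0.08 in females. Musculin, a basic helix-loop-helix repressor, went the other way by sex, with 5.96, 6.07, 5.76 and 5.74 in WSP-1, against 6.47, 6.49, 5.81 and 5.86 in WSP-2, so that the female pools were apart and the male pools close. LIM homeobox protein 1, a homeodomain factor of developing neurons, was above background on no WSP-1 array and on 3 WSP-2 arrays, at least 1.06-fold lower in WSP-1. Nuclear transcription factor-Y gamma, a subunit of the factor that binds CCAAT boxes, read 5.80, 5.71, 5.76 and 5.79 in WSP-1, against 6.08, 6.34, 5.85 and 5.78 in WSP-2. Its mean was at least 1.11-fold lower in WSP-1, and without the array of female WSP-2 pool 2 the difference of -0.25 became -0.16.

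Genes of the neuronal membrane, the cytoskeleton and DNA repair were among those with the lower mean in WSP-1. Amyloid beta (A4) precursor-like protein 1, a neuronal relative of the Alzheimer precursor protein, was above background on all 8 arrays and read 6.17, 6.14, 6.10 and 5.91 in WSP-1, against 6.37, 6.62, 6.73 and 6.23 in WSP-2. All WSP-1 pools lay below all WSP-2 pools, with a difference of -0.41 (SE 0.14, 95% interval -0.73 to -0.09). Capping protein alpha 1, which blocks the growing ends of actin filaments, read 6.06, 6.18, 6.17 and 6.24 in WSP-1, against 6.25, 7.34, 6.79 and 6.59 in WSP-2. The populations touched without overlapping, the difference was -0.58 (SE 0.21), and it was -0.34 without the array of female WSP-2 pool 2, on which the clone was brightest. The 3′ repair exonuclease Trex1, which degrades stray cytosolic DNA, differed by -0.26 (SE 0.10). The tumor susceptibility gene Tsg101, of the endosomal sorting machinery, and mastocytoma N-deacetylase/N-sulfotransferase, an enzyme of heparin synthesis, were above background on no WSP-1 array and were at least 1.04-fold and 1.06-fold lower in WSP-1.

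Of the 20 named genes, 9 had populations that did not overlap, 4 with the higher and 5 with the lower mean in WSP-1, against 0.745% and 1.58% of all clones. The choice of these genes by smallest p favours such separation, so nothing is read from the count. Of the 20 genes, 10 were above background on no array of 1 population. The scale of these differences depends on the background correction. With the raw signal in place of the corrected one, 19 of the 20 differences grew by over 1.5 times, by a median factor of 2.67, and 0 of them passed the adjusted threshold there. Phenylalanine hydroxylase then differed by 0.97, amyloid beta (A4) precursor-like protein 1 by -0.82 and the ankyrin protein by 1.32.

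**Figure D2:**
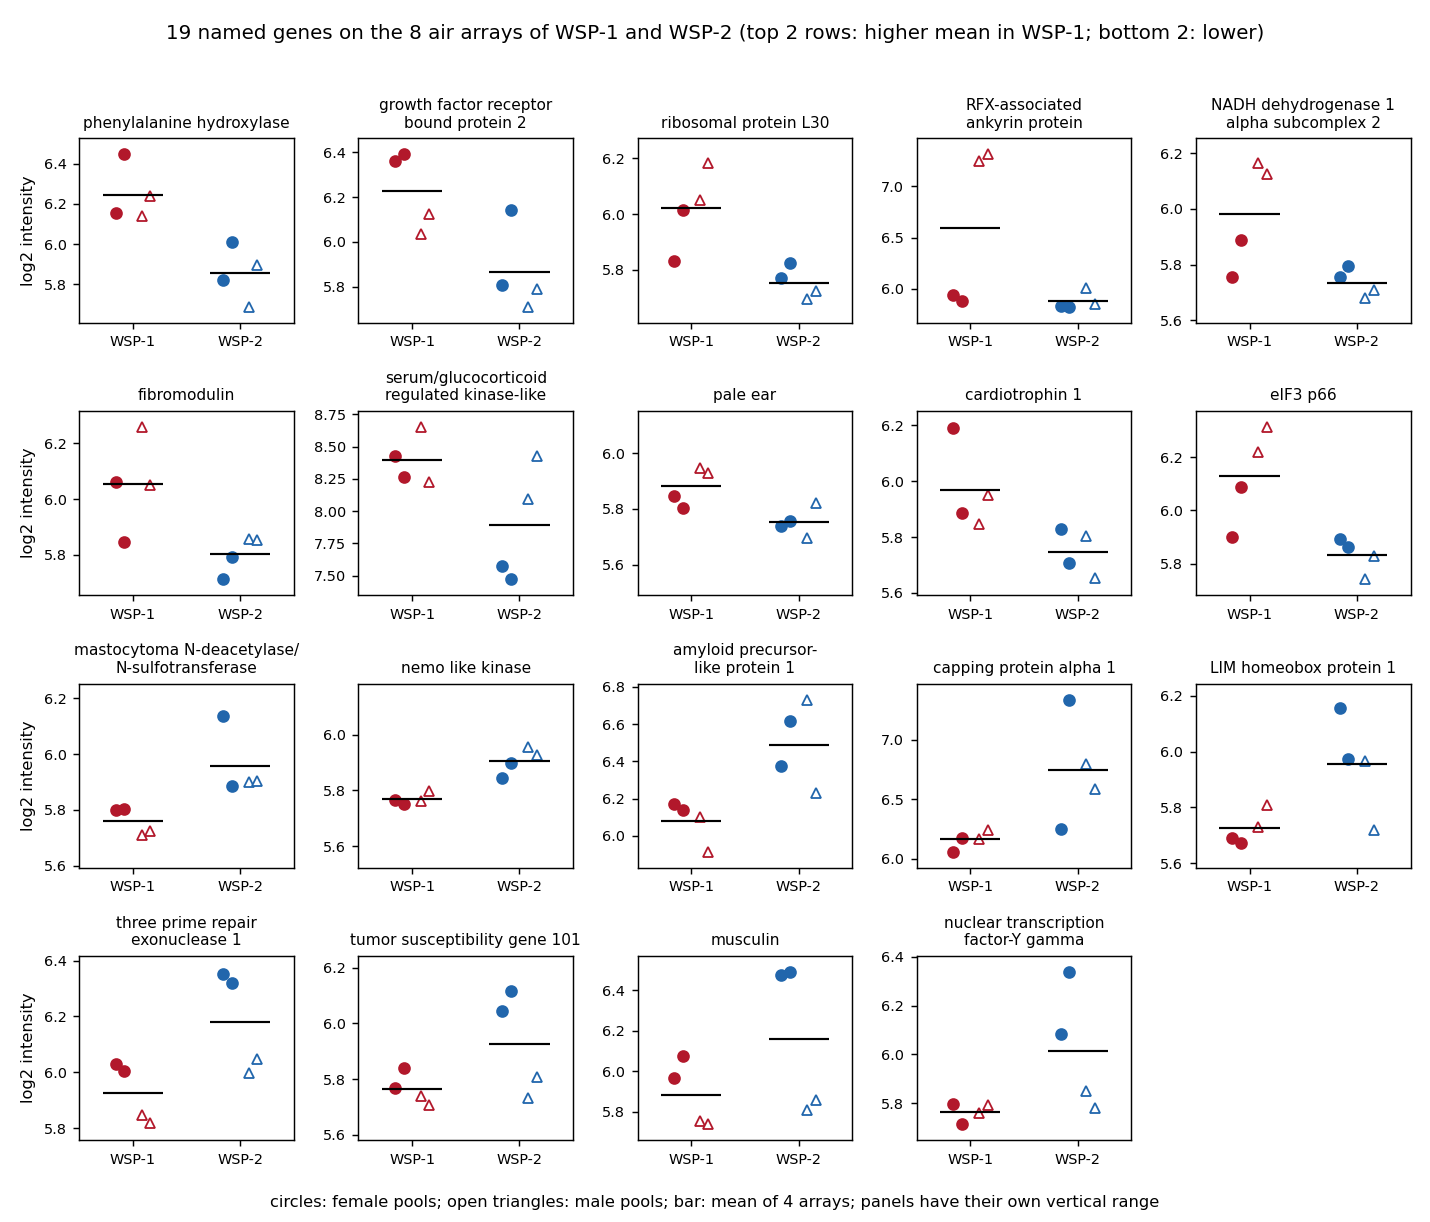
Log2 intensity of 19 of the 20 named genes on each of the 8 air arrays, WSP-1 left and WSP-2 right, with circles for female pools, open triangles for male pools and a bar at the mean of 4 arrays. In 8 panels the 2 populations do not overlap, and in the ankyrin protein panel the 2 male WSP-1 pools at 7.24 and 7.31 stand apart from the other 6 values.

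The position of a clone on the array moved with its difference. For 4694 clones, the difference between WSP-1 and WSP-2 was set beside the median difference of the clones spotted within 2 columns and 2 rows of the same grid, 20 neighbours in the median. The Spearman correlation over these clones was 0.66, and 74.9% of clones shared the sign of their neighbours' median. The points share arrays and overlap in neighbours, so this is a description, and it was 0.61 for the same populations in EtOH and 0.54 for WSR-1 against WSR-2 in air. Among the 183 clones with an unadjusted p under 0.05, 166 had the sign of their neighbours' median.

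All 20 named genes had the sign of their neighbours' median difference. Phenylalanine hydroxylase and growth factor receptor bound protein 2 sat side by side in columns 24 and 25 of row 2 of 1 grid, and all 14 neighbours of each had the higher mean in WSP-1, with a median of 0.24. Ndufa2, the eIF3 p66 clone and Rpl30 lay in columns 13, 14 and 17 of row 5 of another grid, where the median neighbour differed by 0.15, 0.19 and 0.16. Capping protein alpha 1 had a neighbour median of -0.35. For 7 of the 20 the clone's own difference was beyond that of every neighbour, among them the ankyrin protein at 0.71, serum/glucocorticoid regulated kinase-like at 0.50 and amyloid beta (A4) precursor-like protein 1 at -0.41. Their neighbour medians were 0.05, 0.08 and -0.13.

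When the neighbours' median deviation was subtracted on each array, a step chosen after these values were seen, all 20 differences kept their sign and became smaller, 16 of them by over 1.5 times. Phenylalanine hydroxylase became 0.17, growth factor receptor bound protein 2 became 0.10 and Rpl30 became 0.10. The ankyrin protein became 0.64, serum/glucocorticoid regulated kinase-like 0.43 and amyloid beta (A4) precursor-like protein 1 -0.31. In that fit too 0 of 4696 clones passed, with 193 at an unadjusted p under 0.05.

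**Figure D3:**
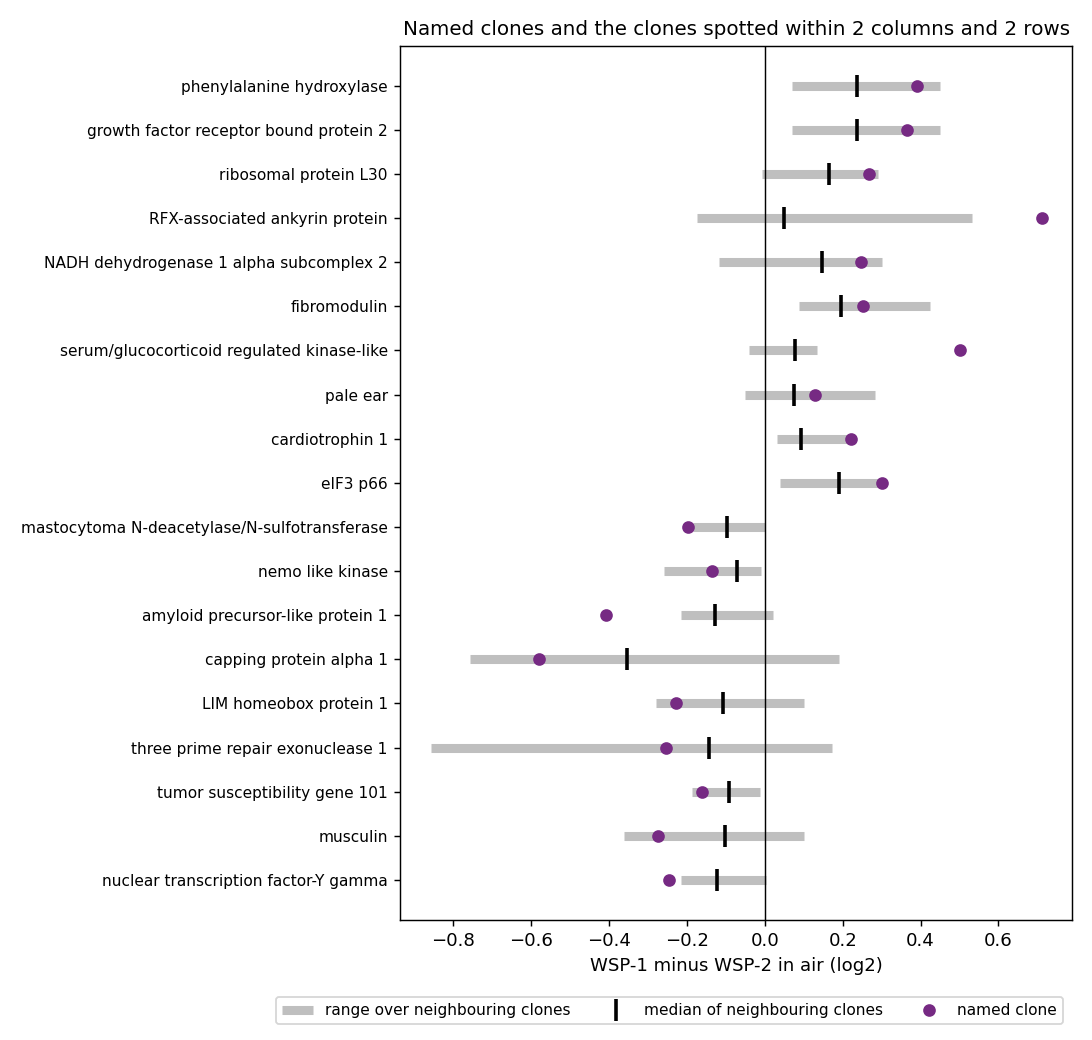
Difference between WSP-1 and WSP-2 in air (horizontal axis, log2) for 19 of the named clones (points), with the median (tick) and range (grey band) over the clones spotted within 2 columns and 2 rows. Every point lies on the same side of 0 as its tick, and 7 points lie beyond their band.

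Some clones were bright on a single array, often in company with clones spotted beside them. A clone exceeded its value on the other 7 air arrays by over 1 log2 unit on 179 occasions, and in 149 of them another such clone of the same array lay within 2 columns and 2 rows. The array of female WSP-2 pool 1 had the most such clones, 63, and that of male WSP-2 pool 2 had 1. On the array of female WSP-2 pool 1 cyclin-dependent kinase inhibitor 1A (Cdkn1a), an arrest factor, read 8.38, the gamma chain of the Fc receptor (Fcer1g), a microglial signalling subunit, 8.31, and the translation kinases Eif2ak4 and Eif2ak3 8.15 and 8.05. On the other WSP-2 arrays these 4 genes read 5.71 to 5.85. Cdkn1a, Fcer1g and Eif2ak4 were spotted within columns 1 to 3 and rows 3 to 4 of 1 grid, and all 18 neighbours of Eif2ak3, in another grid, had the lower mean in WSP-1. The differences of Fcer1g (-0.60, SE 0.47) and Cdkn1a (-0.54, SE 0.51) thus rest on 1 array.

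The sexes were compared by the interaction of population and sex, with 2 arrays in each cell. Of 4696 clones 0 (0%) passed the adjusted threshold, with a smallest adjusted p of 0.659, and 286 (6.09%) had an unadjusted p under 0.05. The difference in females and the difference in males had the same sign for 48.7% of clones and a Spearman correlation of -0.07 over clones. That count of 0 depended on single arrays. Without female WSP-2 pool 2 it was 70, without female WSP-2 pool 1 it was 27, and without female WSP-1 pool 1 it was 22. Without female WSP-1 pool 2 it was 3 and without male WSP-1 pool 2 it was 1. Each of these fits left 1 array in a cell, which was assumed to vary like the other cells. The 20 named genes had the same sign in both sexes, which their choice by p over both sexes favours. The ankyrin protein had an unadjusted p of 0.00033 for the interaction and Ndufa2 one of 0.00817. The female and male arrays also differed as sets. From 53.2% to 59.9% of clones were above background on the female arrays, against 63.9% to 75.3% on the male ones. Clones over 1 log2 unit above all other arrays numbered 14, 35, 63 and 37 on the female arrays, against 7, 18, 4 and 1 on the male ones. Sex and set of arrays cannot be told apart in these readings.

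The same 2 populations in EtOH gave a second set of 8 arrays from other mice. Of 4696 clones 0 (0%) passed there, with a smallest adjusted p of 0.827, and 271 (5.77%) had an unadjusted p under 0.05. The populations did not overlap in EtOH for 1.83% of clones with the higher mean in WSP-1 and 1.92% with the lower mean, and 0 of the 20 named genes were among them in the direction they had in air. The sign of the difference in air was the sign in EtOH for 48.7% of clones, and the Spearman correlation of the 2 differences over clones was -0.06. Of the 183 clones with an unadjusted p under 0.05 in air, 77 had the same sign in EtOH, and 7 had an unadjusted p under 0.05 with the same sign and 7 with the opposite sign. Of the 20 named genes 9 had the same sign. Pale ear was the only one of them with an unadjusted p under 0.05 in EtOH as well (0.13, SE 0.05, in air, against 0.17, SE 0.06, in EtOH), and in air it was above background on no WSP-2 array. Fibromodulin differed by 0.25 in air and by 0.22 (SE 0.14) in EtOH. Rpl30 differed by 0.27 in air and by -0.45 (SE 0.33) in EtOH. That EtOH value rested on female WSP-2 pool 1, which read 7.63, against 5.74, 6.05 and 5.79 on the other WSP-2 EtOH arrays. The ankyrin protein differed by 0.71 in air and by -0.03 (SE 0.08) in EtOH. The test of the air difference minus the EtOH difference called 0 of 4696 clones (0%), with 242 (5.15%) at an unadjusted p under 0.05. The ethanol dose differed between the populations in these arrays, and its part in the values was not tested.

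The WSR line has replicate populations of the same numbers. WSR-1 against WSR-2 in air called 1 of 4696 clones (0.0213%), with an adjusted p of 0.0434, and 337 (7.18%) had an unadjusted p under 0.05. The groups did not overlap for 2.19% of clones with the higher mean in WSR-1 and 1.72% with the lower mean. That call was lost under most of the alternatives, without 7 of the 8 arrays in turn among them. The clone, an untitled expressed sequence with clone number 635065 and named here because it was the only one, read 6.70, 6.43, 6.64 and 6.62 in WSR-1, against 5.84, 5.72, 5.80 and 5.80 in WSR-2. It read 5.78, 5.83, 6.50 and 6.50 in WSP-1, against 5.82, 5.75, 5.93 and 5.83 in WSP-2. The clone was high on all 4 WSR-1 arrays and on the 2 male WSP-1 arrays.

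Clone 635065 was spotted in column 28 of row 8, and the ankyrin protein in column 29 of row 9 of the same grid. The ankyrin protein read 5.96, 7.24, 6.29 and 7.21 in WSR-1, against 5.89, 5.86, 5.95 and 5.76 in WSR-2, a difference of 0.81 (SE 0.26, unadjusted p = 0.0112). Of these 16 air arrays, its 4 brightest were both male WSP-1 pools and pool 2 of each sex in WSR-1. All 24 neighbours of clone 635065 had the higher mean in WSR-1, with a median of 0.42, and 19 of them had the higher mean in WSP-1, with a median of 0.15. Removing the neighbours' median brought the WSR difference of clone 635065 to 0.37, against 0.81 before, with an adjusted p of 0.551.

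Over all clones, 57.8% had the same sign of difference in WSP and in WSR, and the Spearman correlation was 0.23. The 2 differences share no array, and they share the replicate number. Whether populations or arrays of one number had anything else in common is not given in the labels and was not tested. Of the 183 clones with an unadjusted p under 0.05 in WSP air, 127 had the same sign in WSR. Of the 183, 17 had an unadjusted p under 0.05 in WSR with the same sign and 1 with the opposite sign. In EtOH these counts were 77, 7 and 7. Of the named genes 17 of 20 had the same sign in WSR as in WSP. For 2 of them, the ankyrin protein and Rpl30 (0.28, SE 0.12), the unadjusted p in WSR was under 0.05. The test of the WSP difference minus the WSR difference called 0 of 4696 clones (0%), with 148 (3.15%) at an unadjusted p under 0.05.

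**Figure D4:**
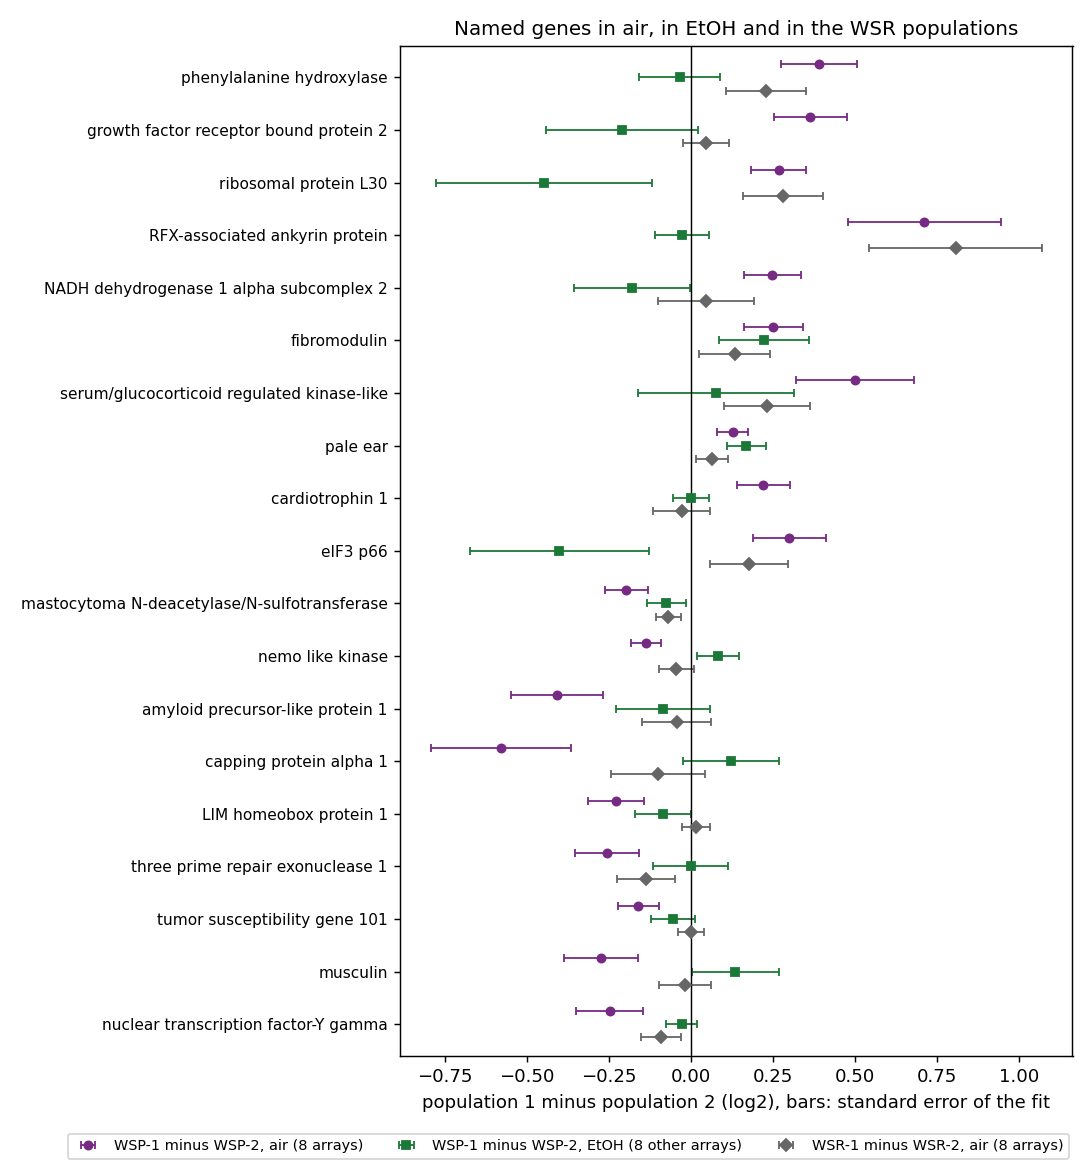
Difference of population 1 minus population 2 (log2, with the standard error of the fit) for 19 of the 20 named genes in WSP air (circles), WSP EtOH (squares) and WSR air (diamonds). The EtOH points lie on the same side of 0 as the air points for 9 genes and the WSR points for 16.

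The genomic DNA control spots carry no gene of their own. They were quantile normalised together with the clone spots, whereas the clone values above were normalised without them. The same model was then fitted to the control spots alone. Of 192 control spots 0 (0%) passed, 5 (2.6%) had an unadjusted p under 0.05, and their median absolute difference between WSP-1 and WSP-2 was 0.08, as for the clones. Over the 1553 clones above background on all 8 arrays, the 4 pairs of arrays of the same population and sex had Spearman correlations of 0.86 to 0.93 with a median of 0.88. The 8 pairs of different population and same sex had 0.85 to 0.92 with a median of 0.88. Arrays of one population were therefore about as much like those of the other population as like each other.

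Gene lists relevant to brain, to alcohol and to stress were then read. Of 613 list genes 133 were on the array as 137 titled clones, 44 of which were above background on all 8 arrays. Of these 137 clones 0 passed, and 9 (6.57%) had an unadjusted p under 0.05, against 3.9% of all clones. The populations did not overlap for 5 list clones with the higher mean in WSP-1 and 1 with the lower mean, against 0.745% and 1.58% of all clones, and the median difference was 0.02, against 0.00 over all clones. None of the 16 candidate genes for alcohol withdrawal was matched to a titled clone. Of the alcohol metabolism genes only cytochrome P450 2e1 (Cyp2e1), an ethanol-oxidising enzyme, was measured. It read 5.97, 7.25, 5.99 and 6.14 in WSP-1, against 5.86, 6.01, 6.01 and 6.18 in WSP-2, a difference of 0.33 (SE 0.26, 95% interval -0.27 to 0.92) that came from female WSP-1 pool 2.

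Among the genes of synaptic transmission, both GABA genes had the higher mean in WSP-1. The vesicular inhibitory amino acid transporter (Slc32a1), which loads GABA and glycine into vesicles, read 6.80, 5.99, 5.66 and 6.02 in WSP-1, against 5.70, 5.71, 5.68 and 5.68 in WSP-2. It was above background on 3 WSP-1 arrays and on no WSP-2 array, at least 1.17-fold higher in WSP-1, with an unadjusted p of 0.043. All 15 of its neighbours on the array had the higher mean in WSP-1 as well, with a median of 0.24, and its difference of 0.42 became 0.19 when that was removed. The GABA-B receptor subunit Gabbr1 differed by 0.15 (SE 0.23). The NMDA receptor subunit Grin1 had populations that did not overlap, with 5.75, 5.85, 5.85 and 5.85 in WSP-1, against 6.30, 5.87, 5.93 and 5.90 in WSP-2, a difference of -0.17 (SE 0.11). The 5 measured glutamate genes had a median of 0.10, and the 5 synaptic vesicle genes, Syn1, Vamp2, Syt4, Snap23 and Stx7, lay between -0.06 and 0.08. Of the 6 ion channel genes 5 had the lower mean in WSP-1.

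The 10 immediate early genes, the transcripts that neurons raise after firing, had a median of 0.06, a range of -0.32 to 0.12 and none with an unadjusted p under 0.05. Ier2, above background on all 8 arrays, averaged 7.32 in WSP-1 and 7.21 in WSP-2. The 6 heat shock genes had a median of -0.004 and a range of -0.25 to 0.30, 3 with the higher and 3 with the lower mean in WSP-1. The 5 endoplasmic reticulum stress genes had a median of -0.04, with Eif2ak4 (-0.52) and Eif2ak3 (-0.48), both bright on 1 array, at the low end. Ddit3, above background on all 8 arrays, averaged 9.39 in WSP-1 and 9.43 in WSP-2, a difference of -0.04 (SE 0.14). Of the 8 ribosomal protein clones 6 had the higher mean in WSP-1, with a median of 0.16, and Rpl30 and Rpl27a had an unadjusted p under 0.05. In EtOH the median of the same 8 clones was -0.11. The steroid and glucocorticoid genes, 7 in number, had a median of 0.03.

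Immune genes held the 2 largest list differences with an unadjusted p under 0.05. Guanylate nucleotide binding protein 2 (Gbp2), an interferon-induced GTPase, read 6.87, 7.33, 6.03 and 6.0 in WSP-1, against 5.80, 6.52, 5.90 and 5.82 in WSP-2, a difference of 0.55 (SE 0.22). The Rel family subunit Rela, of nuclear factor kappa B, read 8.19, 7.71, 7.61 and 7.56 in WSP-1, against 7.25, 7.69, 7.37 and 7.03 in WSP-2, a difference of 0.43 (SE 0.17). Female WSP-2 pool 2 was the highest WSP-2 array for both genes and lay within the WSP-1 range. In EtOH the difference was -0.20 for Gbp2 and -0.25 for Rela. The class II invariant chain Cd74, above background on all 8 arrays, averaged 10.57 in WSP-1 and 10.61 in WSP-2. Histone deacetylase 5 (Hdac5), a chromatin regulator of neurons, read 5.77, 5.82, 5.75 and 5.85 in WSP-1, against 6.35, 6.37, 5.88 and 5.76 in WSP-2, high in the 2 female WSP-2 pools alone.

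**Figure D5:**
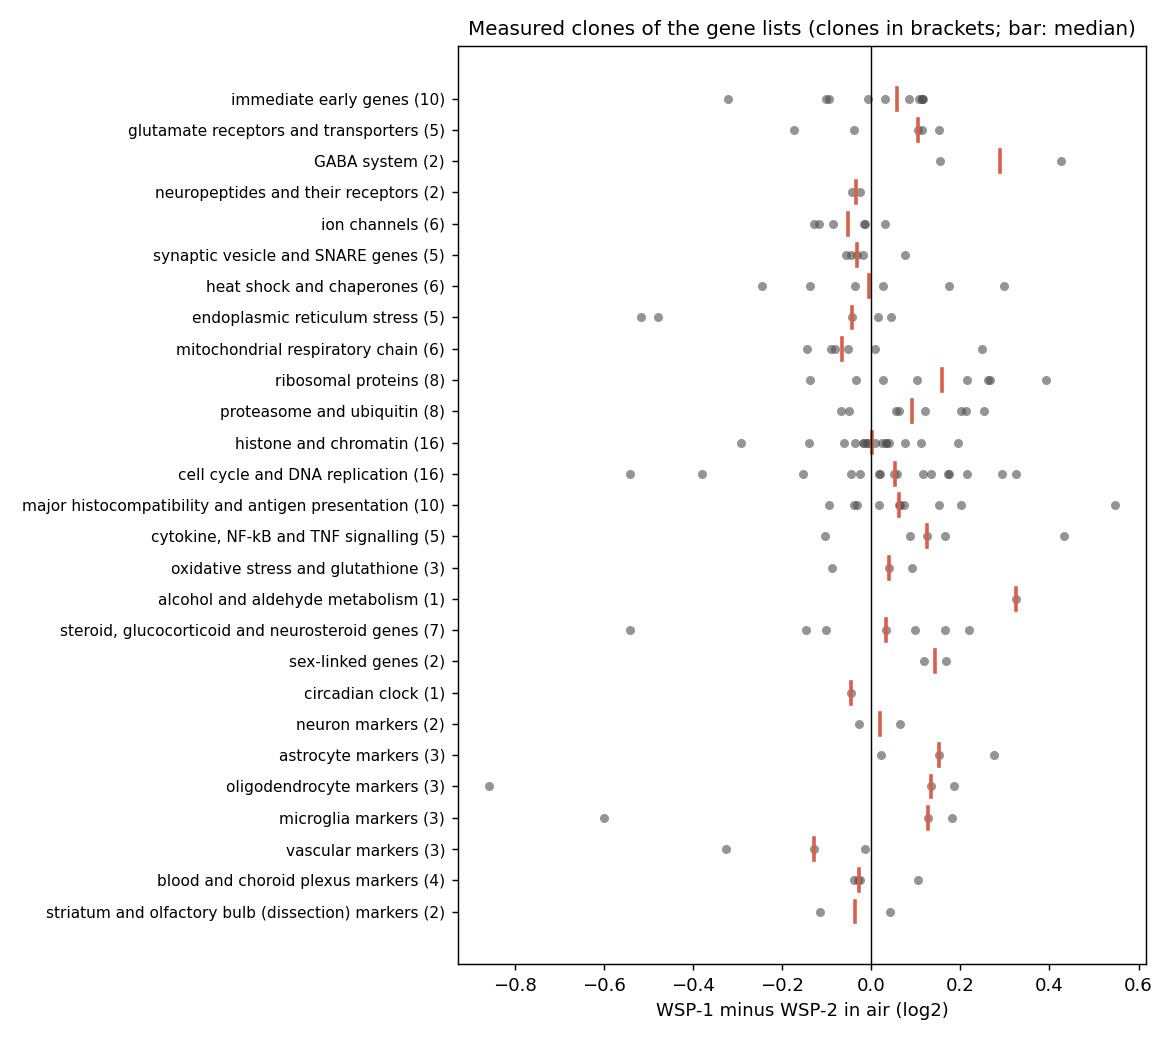
Difference between WSP-1 and WSP-2 in air (horizontal axis, log2) for each measured clone of 27 gene lists, with the number of clones in brackets and a bar at the list median. Most points lie within 0.25 of 0, and the 5 clones below -0.45 are those that were bright on the array of female WSP-2 pool 1, with 1 of them, Cdkn1a, drawn in 2 lists.

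The tissue and the sex of the pools were checked against marker genes. In pooled tissue RNA, fewer cells of a type and less RNA per cell cannot be told apart. The neuronal markers Ina and Thy1 were above background on all 8 arrays, with differences of -0.03 and 0.06. Of 10 astrocyte markers 3 were measured, all with the higher mean in WSP-1 (median 0.15, range 0.02 to 0.28). Of 8 vascular markers 3 were measured, all with the lower mean (median -0.13, range -0.33 to -0.01). The 3 measured of 10 oligodendrocyte markers ran from -0.86 to 0.19, and the 3 of 10 microglial markers from -0.60 to 0.18. The lowest oligodendrocyte and microglial values came from clones bright on the array of female WSP-2 pool 1. No clone of these lists had an unadjusted p under 0.05. The brighter of 2 alpha globin clones (Hba-a1) and transthyretin (Ttr), markers of blood and choroid plexus, were bright at 10.64 and 9.93 in WSP-1 and at 10.67 and 9.95 in WSP-2. The Y-linked initiation factor gene Eif2s3y did not separate the sexes on these arrays, since it read 6.34 and 6.34 in female and 6.48 and 6.58 in male WSP-1 pools, against 6.31 and 6.20 in female and 6.26 and 6.31 in male WSP-2 pools. It was above background on all 8 arrays, so this clone gave no check of the sex labels. Its populations did not overlap, with a difference of 0.17 (SE 0.11). The X-linked demethylase gene Kdm6a read 5.81 to 5.90 in WSP-1, against 5.71 to 5.78 in WSP-2, where it was above background on no array. The populations did not overlap for Kdm6a either, with a difference of 0.12 (SE 0.04, limma's test, unadjusted p = 0.0112, adjusted p = 0.861). With its neighbours' median removed the difference became 0.04.

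The 15 brightest titled clones, all above background on every array, lie far from the floor that narrows the intervals of dim clones. Of these 15, 0 had a 95% interval that left out 0, and 12 had an interval within 1.41-fold in either direction. The 3 others were mannosidase 1, alpha, at -0.18 to 0.63, fat specific gene 27 at -0.57 to 0.34 and the histone 4 protein clone at -0.61 to 0.25. Ferritin light chain 1, an iron store, averaged 11.26 ± 0.16 in WSP-1 and 11.28 ± 0.12 in WSP-2 (SD, n = 4 each), with an interval of -0.24 to 0.21. The interval was -0.24 to 0.17 for WW domain binding protein 1 and -0.22 to 0.34 for chromogranin B, a secretory granule protein. It was -0.38 to 0.14 for protein kinase C and casein kinase substrate in neurons 2, an endocytosis adaptor.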

How the data were processed

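Prefrontal cortex RNA of the 8 WSP air arrays was compared. Per the file headers, the authors deposited for each array a spot intensity (Signal) and 1 background intensity, neither corrected. A deposited table of all arrays, in log2 and empty where a spot was under background, served as an alternative. The software that read the spots is not given in the sources used here. Intensities were corrected with normexp (offset 50) over all 5355 spots, and the 4696 clone spots were quantile normalised over the 32 arrays and put on the log2 scale. limma 3.58.1 in R 4.3.3 (lmFit, eBayes with an intensity trend) was fitted with sex as a block and Benjamini-Hochberg adjustment over all clones, 2-sided, at 0.05, with 5 residual and 4.16 prior degrees of freedom. The fit was run on simulated data with independent errors for each clone, whereas the real differences moved with those of neighbouring clones. A clone above background on no array of a population has only a bound, computed from the lowest signal above background on each array. The bound compares observed means and is not a confidence limit. The number of arrays limits the precision.

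Titles come from the files, and 133 of them were matched by hand to symbols of list genes. Named genes are titled clones, other than expressed sequences, with a mean in the higher population above the 25th percentile of clone means (5.86): those passing, or else the 10 of smallest p per direction, plus measured alcohol and sex-linked genes. List genes named as examples were chosen after their values were seen. Members, lists and tests were chosen with earlier results of these data known. Alternatives were other normalisations, background corrections, filters and blocks, the deposited table, leaving out each array, each sex alone and removal of the neighbours' median, the last 2 added after seeing the data. Pool numbers only name pools: deviations of same-numbered pools correlated at 0.01 in females and -0.13 in males. Plots used Python 3.11.15 and matplotlib 3.10.9. Some genes that the naming rule or the lists hold are counted but not reported here singly.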

Additional observations from a re-analysis of the deposited data

Results flagged for a closer look

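In a group of 4 arrays, a sample was picked out when its gap to the nearest other was larger, as a share of the group's range, than Dixon's 95% critical value. This was met 10 times over 66 groups tested, where about 5% is the share for genes not chosen by their values. The genes tested were those described here. Some were named because 1 array stood apart, so nothing is read from the count. The array of female WSP-2 pool 1 stood above the other WSP-2 arrays for 5 genes: Cdkn1a at 8.38, Fcer1g at 8.31, Eif2ak4 at 8.15, Eif2ak3 at 8.05 and mastocytoma N-deacetylase/N-sulfotransferase at 6.14. Female WSP-1 pool 2 stood above for Cyp2e1 at 7.25 and male WSP-1 pool 2 for Cdkn1a at 6.24. Female WSP-2 pool 2 stood above for Gbp2 at 6.52. Male WSP-2 pool 1 stood above for the ankyrin protein at 6.01 and for Kdm6a at 5.78.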

How the results depend on the processing

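WSP-1 against WSP-2 in air called 0 clones under all 15 single settings tried and without each array in turn, with 90 (deposited table) to 338 (all 32 arrays) at an unadjusted p under 0.05 and 299 in males alone. The smallest adjusted p of limma's test, 0.861 in the main fit, was 0.311 with all 32 arrays and 0.0611 in males alone. The last was for the ankyrin protein, which differed by 1.34 (SE 0.17) in males. Same-numbered pools were fitted with a replicate block, which gave 0 calls and 127 at an unadjusted p under 0.05, although the numbers do not pair the pools. The population by sex interaction, 0 calls in all, gave 0 to 70 without single arrays. EtOH gave 0, and 1 with all 32 arrays sharing the spread. WSR, with 1 call, gave 0 under median scaling, cyclic loess, quantiles over the compared arrays, the deposited table, the replicate block, a control-spot covariate and removal of the neighbours' median, 2 without background correction, 4 with all 32 arrays, and 0 to 1 without single arrays. The cause was not tested. The background difference of 2.4 ranged from -1.27 to 6.18 without single arrays: it was -1.27 without female WSP-2 pool 1, -0.236 without male WSP-1 pool 1 and -0.128 without male WSP-1 pool 2. No named gene reversed or passed under any setting (437 values). Removal of the neighbours' median and each sex alone were added after seeing the data.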
